A study of Mus musculus with 15 samples.

Results

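The amino acid transporter genes of the mouse liver were followed from the non-pregnant (NP) state to mid and late pregnancy. The genes were taken by name from the count table, as listed genes of the solute carrier (SLC) families SLC1, SLC3, SLC6, SLC7, SLC36, SLC38 and SLC43 with 10 or more counts in at least 3 libraries. Of 63 listed genes of these 7 families, 31 met this rule, out of 21702 genes in the table, of which 12216 met the same count rule. The members were 2 genes of SLC1, 2 of SLC3, 7 of SLC6, 7 of SLC7, 2 of SLC36, 8 of SLC38 and 3 of SLC43. Slc7a6os entered through its name alone, since it is a neighbour of Slc7a6 on the opposite strand and is not itself a transporter gene.

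All 15 mice were wild-type C57BL/6 females (substrain C57BL/6N in the study's methods) that had received adeno-associated virus 8 (AAV8) through the tail vein, and there were 3 mice in each of 5 groups. NP, 8 dpc (days post-coitum) and 16 dpc mice carried the empty vector AAV8-null, and a further 8 dpc and a further 16 dpc group carried AAV8-p21. AAV8-p21 expresses the cell cycle inhibitor p21 (gene Cdkn1a) from the thyroxine-binding globulin promoter, which is active in hepatocytes, so other liver cells were not targeted. There was no NP group with AAV8-p21. Per the paper, the 16 dpc mice sequenced had received their vector while non-pregnant, before mating. RNA from whole liver was sequenced, with 12280709 to 17615185 counts per library.

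Amino acids cross the hepatocyte membrane on carriers that differ in substrate and driving force. SLC38 carriers couple glutamine, alanine and other neutral amino acids to sodium, SLC6 carriers move glycine, taurine, betaine, creatine or gamma-aminobutyric acid (GABA) with sodium and chloride, and SLC7 carriers take cationic amino acids or exchange 1 amino acid for another. Several SLC7 carriers reach the membrane only when bound to a heavy subunit of SLC3. SLC43 holds facilitators of large neutral amino acids, SLC36 holds proton-coupled carriers that also work at the lysosome, and the SLC1 members kept here, Slc1a4 and Slc1a5, exchange neutral amino acids. The liver is a main site of glutamine, glycine and arginine metabolism, and in pregnancy the mother's liver shares circulating amino acids with the placenta.

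The libraries were checked for features that touch these results. Cdkn1a lay between 3.29 and 127 CPM (counts scaled to sequencing depth) in the 9 AAV8-null libraries and between 347 and 1664 CPM in the 6 AAV8-p21 libraries. Albumin took 7.90% to 12.9% of all counts in the NP and 8 dpc libraries and 20.5% to 27.8% at 16 dpc, and the trimmed mean of M values (TMM) factors that correct for such a shift were 1.10 to 1.25 and 0.682 to 0.839. CPM here are TMM-normalised, and a level compared between genes is CPM per kb of exon. NP mouse 1 stood apart from the other NP mice in several genes below, and genes of the circadian clock also differed between mice of the same group. In bulk liver, fewer cells of a type and less RNA per cell cannot be told apart.

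Of the 30 members tested, 3 passed in at least one comparison, and each of them was higher at 16 dpc: Slc6a9, Slc43a1 and Slc7a7. In the comparisons of 16 dpc with NP, of 16 dpc with 8 dpc with AAV8-null and of 16 dpc with 8 dpc with AAV8-p21, 2, 3 and 3 members passed, beside 6.52%, 6.87% and 3.32% of all genes. Slc6a9 encodes the glycine transporter GlyT1, Slc43a1 the large neutral amino acid facilitator LAT3, and Slc7a7 the light chain y+LAT1, which with Slc3a2 exchanges cationic for neutral amino acids. Slc6a9 lies on chromosome 4 (117834506 to 117875198, plus strand), Slc43a1 on chromosome 2 (84838850 to 84863594, plus strand) and Slc7a7 on chromosome 14 (54369442 to 54417780, minus strand), all on GRCm38 with the GENCODE M21 annotation.

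Since these members rose together between 8 dpc and 16 dpc, the stretches before their RefSeq starts are shown, 5′ to 3′ on the gene's strand (GRCm38.p6). Each stretch runs from 250 bases before a start up to the first annotated exon base of the gene, at the start where this stretch is longest. The Slc43a1 stretch, like that of Slc6a9, lies inside the annotated gene, which begins at 84838850. Capitals mark the match to the amino acid response element TGATGNAA, the sequence bound by ATF4 with its partners.
Slc6a9, chr4:117855297-117855491, plus strand, within an intron upstream of the third start: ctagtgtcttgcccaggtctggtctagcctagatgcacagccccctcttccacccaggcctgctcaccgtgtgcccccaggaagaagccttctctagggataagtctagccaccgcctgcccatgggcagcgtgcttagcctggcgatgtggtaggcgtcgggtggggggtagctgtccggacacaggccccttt
Slc43a1, chr2:84840073-84840198, plus strand: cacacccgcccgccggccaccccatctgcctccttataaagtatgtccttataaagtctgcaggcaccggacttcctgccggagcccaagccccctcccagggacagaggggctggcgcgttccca
Slc7a7, chr14:54417945-54418194, minus strand, upstream of the gene: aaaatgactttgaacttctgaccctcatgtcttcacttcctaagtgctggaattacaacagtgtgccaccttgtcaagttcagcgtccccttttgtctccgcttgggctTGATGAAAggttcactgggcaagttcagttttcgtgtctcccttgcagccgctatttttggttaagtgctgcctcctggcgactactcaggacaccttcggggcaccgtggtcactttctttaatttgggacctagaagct
Both strands of the 250 bases before all 9 RefSeq starts of these genes were searched for TGATGNAA, for the STAT motif TTCNNNGAA, for the E-box CACGTG and for the GATA motif AGATAA. TGATGNAA was found before 2 of the 5 starts of Slc7a7, and 3.45% of all 32851 RefSeq windows of this length hold it. The Slc43a1 window held 1 CACGTG, outside the stretch shown, and 6.02% of windows hold that motif. AGATAA was found in 2 overlapping windows of Slc7a7, as the same bases, against 9.99% of windows. TTCNNNGAA, which 7.02% of windows hold, was not in any of the 9. These letter matches are descriptions and not binding sites.

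Slc6a9 had the largest change of any member. Its level was 20.7, 18.3 and 20.3 CPM in NP mice 1, 2 and 3, 21.2, 21.02 and 31.3 CPM in the 8 dpc AAV8-null mice, and 282, 449 and 171 CPM in the 16 dpc AAV8-null mice. With AAV8-p21 it was 16.04, 22.1 and 36.1 CPM at 8 dpc and 257, 245 and 200 CPM at 16 dpc. Every 16 dpc mouse of either vector lay above every NP and 8 dpc mouse, with a wide gap. Slc6a9 was 15.2-fold higher in 16 dpc than in NP AAV8-null livers (log2 fold change 3.93, SE 0.37, edgeR quasi-likelihood test with Benjamini-Hochberg adjustment over 12172 genes, adjusted p = 2.86e-05). From 8 dpc to 16 dpc it was 12.3-fold higher with AAV8-null (log2 fold change 3.62, SE 0.36, adjusted p = 4.79e-05, edgeR) and 9.47-fold higher with AAV8-p21 (log2 fold change 3.24, SE 0.36, adjusted p = 0.000188, edgeR). Among all genes tested it ranked 11th, 17th and 14th by p-value in these comparisons, in that order.

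Slc43a1 was 5.26, 7.68 and 10.5 CPM in NP mice, 11.5, 10.5 and 8.17 CPM in 8 dpc AAV8-null mice, and 18.5, 22.7 and 24.7 CPM in 16 dpc AAV8-null mice. In AAV8-p21 mice it was 8.54, 4.74 and 5.604 CPM at 8 dpc and 25.6, 14.7 and 29.7 CPM at 16 dpc. The 16 dpc mice were again above all NP and 8 dpc mice, by a smaller margin than for Slc6a9. Slc43a1 was 2.81-fold higher at 16 dpc than in NP livers (log2 fold change 1.49, SE 0.31, adjusted p = 0.0105, edgeR), 2.18-fold higher than at 8 dpc with AAV8-null (log2 fold change 1.13, SE 0.30, adjusted p = 0.0390, edgeR) and 3.69-fold higher than at 8 dpc with AAV8-p21 (log2 fold change 1.88, SE 0.31, adjusted p = 0.00390, edgeR). The AAV8-null step from 8 dpc rested on every library but 16 dpc AAV8-null mouse 1: left out in turn, each of the other 5 took the adjusted p over the threshold (edgeR, range over the 6 fits 0.0441 to 0.124). Scaled by total counts without TMM, the AAV8-null log2 fold changes were 0.82 against NP (adjusted p = 0.0513, edgeR) and 0.43 against 8 dpc (adjusted p = 0.268, edgeR), so neither passed.

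Slc7a7 was low in every library. It was 3.53, 2.56 and 2.52 CPM in NP mice, 2.91, 2.74 and 1.25 CPM in 8 dpc AAV8-null mice and 6.86, 4.33 and 6.59 CPM in 16 dpc AAV8-null mice. With AAV8-p21 it was 2.71, 2.11 and 2.24 CPM at 8 dpc and 7.67, 7.41 and 7.14 CPM at 16 dpc. All 6 mice at 16 dpc exceeded all 9 others. Slc7a7 was 2.58-fold higher at 16 dpc than at 8 dpc with AAV8-null (log2 fold change 1.37, SE 0.30, adjusted p = 0.0164, edgeR) and 3.13-fold higher with AAV8-p21 (log2 fold change 1.65, SE 0.30, adjusted p = 0.00728, edgeR). Against NP the 16 dpc AAV8-null difference was 1.04 on the log2 scale (SE 0.30) and missed the threshold (adjusted p = 0.0511, edgeR). DESeq2 called it on the 15 libraries (adjusted p = 0.0151) and on the compared groups (adjusted p = 0.0398), as did limma with voom (adjusted p = 0.00376). In edgeR it passed without NP mouse 1 (adjusted p = 0.0488, edgeR) or without 16 dpc AAV8-null mouse 2 (adjusted p = 0.0445, edgeR), and the step from 8 dpc with AAV8-null missed without 16 dpc AAV8-null mouse 3 (adjusted p = 0.0527, edgeR), by total counts (log2 fold change 0.68, adjusted p = 0.0802, edgeR) and in a fit of the compared groups alone (adjusted p = 0.105, edgeR).

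**Figure D1:**
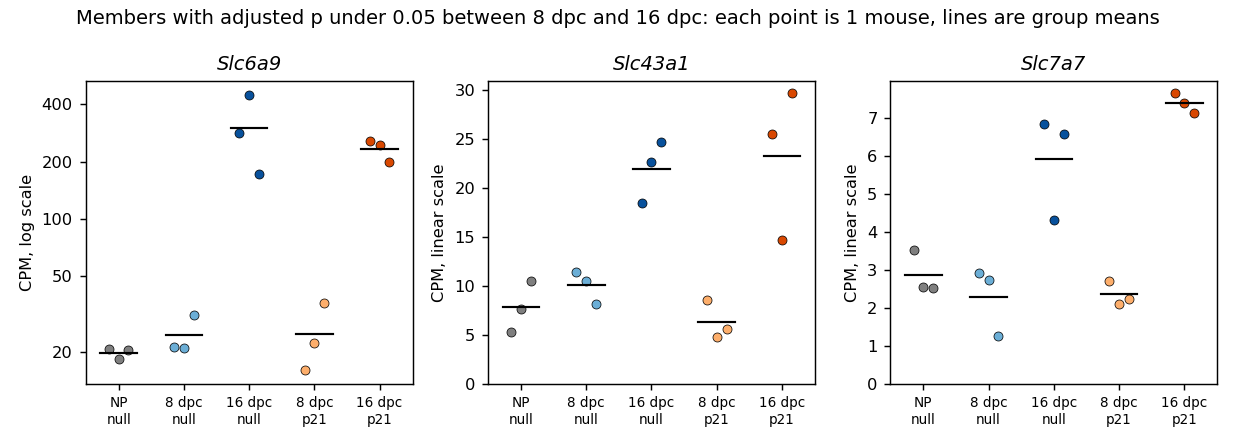
CPM of Slc6a9 (log axis), Slc43a1 and Slc7a7 (linear axes) in the 5 groups, with 1 point per mouse and a line at each group mean (n = 3 mice). In each panel the 6 mice at 16 dpc sit above the 9 NP and 8 dpc mice, and for Slc6a9 the 16 dpc points lie between 171 and 449 CPM against 16.04 to 36.1 CPM elsewhere.

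Levels in other cells and overlapping genes were read beside these results. Glycine taken up by GlyT1 feeds heme synthesis in red cell precursors, so 6 erythroid markers were read beside Slc6a9. Their summed level was 49.6 to 99.7 CPM in NP mice, 89.5 to 103 CPM in 8 dpc AAV8-null mice and 110 to 170 CPM in 16 dpc AAV8-null mice, and with AAV8-p21 it was 115 to 201 CPM at 8 dpc and 124 to 167 CPM at 16 dpc. Of the 5 erythroid markers tested, Alas2, the erythroid heme synthesis enzyme, and Hbb-bs were higher at 16 dpc than in NP livers, and of the 5 only Alas2 was called higher at 16 dpc than at 8 dpc with AAV8-p21, where the other 4 had negative log2 fold changes that did not pass (median of the 5 −0.38). In the AAV8-null step from 8 dpc to 16 dpc all 5 had positive log2 fold changes (median 0.36) and none passed in edgeR. Alas2 was 4.75 to 12.1 CPM in NP mice and 19.9 to 28.3 CPM in 16 dpc AAV8-null mice, while the red cell membrane marker Slc4a1 stayed at or below 0.728 CPM in every library. The 3 mice at 8 dpc with AAV8-p21 had erythroid sums of 115, 201 and 127 CPM, each above the lowest 16 dpc mouse, while their Slc6a9 was at most 36.1 CPM, and Alas2 was 9.81 to 16.3 CPM there against 27.2 to 51.6 CPM at 16 dpc with AAV8-p21. The part of erythroid cells in the Slc6a9 difference was not tested. On the opposite strand, Slc6a9 overlaps Ccdc24 and B4galt2, which stayed at or below 0.0727 and 0.852 CPM, and Slc7a7 overlaps Oxa1l, which lay between 30.1 and 46.7 CPM in all libraries and had adjusted p from 0.294 to 1 in the 7 comparisons (edgeR). Whether the counting used the strand is not stated.

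The levels of the 31 members spanned a wide range. Averaged over the groups, 10 members were at 10 or more CPM per kb, 9 between 1 and 10, and 12 under 1 CPM per kb. Slc38a3 (226 CPM per kb), Slc38a4 (160 CPM per kb), Slc6a13 (51.5 CPM per kb) and Slc7a2 (47.0 CPM per kb) led, and these 4 genes together made up 62.0% to 85.9% of the summed level of all members in a library. SLC38 alone held 58.0% to 71.5% of the summed level in the 15 libraries. At the other end, Slc6a21, Slc7a1, Slc38a1 and Slc7a4 averaged under 0.2 CPM per kb, and Slc6a21 was too low for the test.

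**Figure D2:**
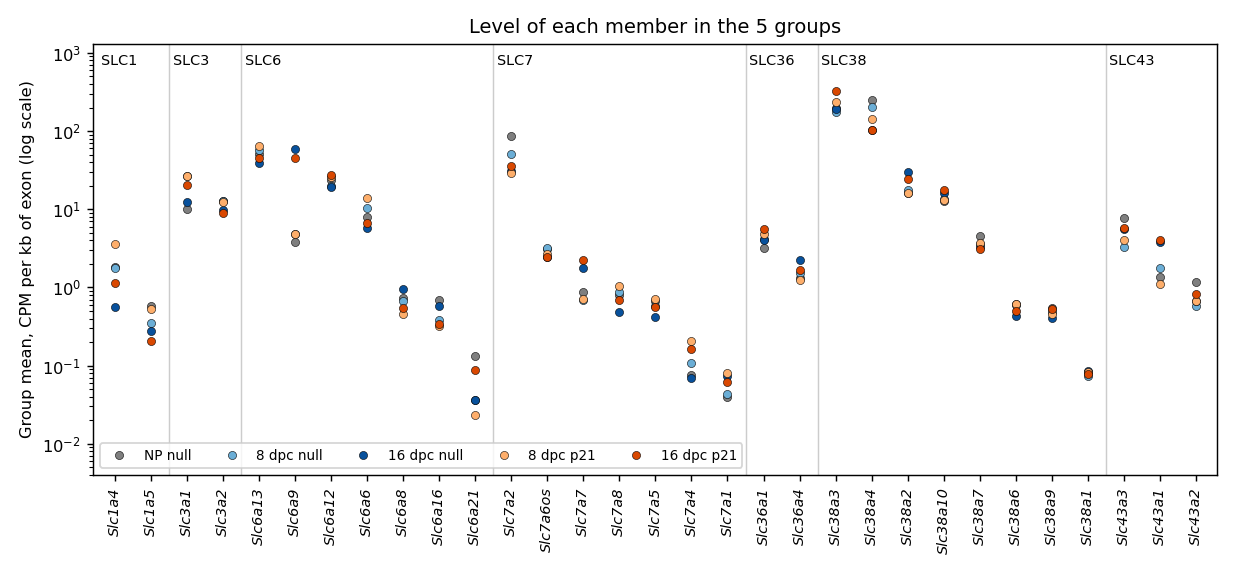
Group means of CPM per kb of exon (log axis) for the 31 members, ordered by family and then by level, with 1 point per group (mean of 3 mice). Slc38a3 and Slc38a4 stand at the top, and the 16 dpc points of Slc6a9 lie at 45.5 and 58.5 CPM per kb against 3.85 to 4.81 CPM per kb in its other groups.

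The first comparison asks what had changed by mid-pregnancy. Between 8 dpc and NP livers with AAV8-null, 0 of 30 members tested passed, as did 0% of all 12172 genes, in edgeR. At an unadjusted p under 0.05 there were 3 members, against 6.6% of all genes. DESeq2 on the same 15 libraries called 1 member (0.575% of all genes) and limma with voom quality weights called 7 (15.2% of all genes). The groups did not overlap for 5 members (Slc3a1, Slc6a6 and Slc6a9 above, Slc43a3 and Slc6a16 below), against 10.2% of all genes.

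Slc43a3, a carrier of purine nucleobases in a family otherwise known for amino acids, was the member DESeq2 called. It was 24.9, 36.8 and 41.4 CPM in NP mice and 15.1, 11.0 and 17.9 CPM in 8 dpc AAV8-null mice, so every 8 dpc mouse was below every NP mouse. The difference was −1.23 on the log2 scale (SE 0.24), with an adjusted p of 0.264 in edgeR and 0.00216 in DESeq2. At 16 dpc it was 21.2, 30.0 and 23.8 CPM with AAV8-null, above all 8 dpc AAV8-null mice (log2 difference 0.77, SE 0.24, adjusted p = 0.0647, edgeR), and with AAV8-p21 it was 17.4, 14.7 and 22.1 CPM at 8 dpc and 23.9, 28.9 and 24.6 CPM at 16 dpc. Slc3a1, the heavy subunit rBAT, was 31.9, 13.6 and 22.7 CPM in NP mice and 45.0, 97.8 and 40.1 CPM in 8 dpc AAV8-null mice, with no overlap (log2 difference 1.42, SE 0.47, adjusted p = 0.438, edgeR).

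Markers of other liver cells were read beside Slc43a3, and their lists differed in sign. Between NP and 8 dpc AAV8-null livers all 8 endothelial and all 8 stellate and fibroblast markers had negative log2 fold changes (medians −0.94 and −0.46), and none passed in edgeR. From 8 dpc to 16 dpc with AAV8-null, 8 endothelial and 7 stellate and fibroblast markers had positive ones (medians 0.82 and 0.39), of which Pecam1, Clec4g and Dcn passed. The endothelial sum was 161 to 354 CPM in NP mice, 120 to 181 CPM at 8 dpc and 226 to 333 CPM at 16 dpc with AAV8-null, and 169 to 226 CPM at 8 dpc and 236 to 273 CPM at 16 dpc with AAV8-p21. The stellate and fibroblast sum was 187 to 202 CPM in NP mice, 103 to 166 CPM at 8 dpc and 195 to 268 CPM at 16 dpc with AAV8-null, and 182 to 248 CPM at 8 dpc and 229 to 245 CPM at 16 dpc with AAV8-p21. Kupffer and macrophage markers had 6 of 8 positive at 8 dpc against NP and 6 of 8 negative from 8 dpc to 16 dpc with AAV8-null (medians 0.10 and −0.24), and the cholangiocyte median of the latter step was −0.80. The part of these cells in the Slc43a3 values was not tested.

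Late pregnancy was compared with NP next. Between 16 dpc and NP livers with AAV8-null, 2 of 30 members passed (Slc6a9 and Slc43a1, both higher), beside 6.52% of all genes, 3.71% higher and 2.82% lower. An unadjusted p under 0.05 was met by 13 members, 5 higher and 8 lower, and by 21.2% of all genes, 10.4% higher and 10.8% lower. The groups did not overlap for 8 members, against 24.6% of all genes. The median log2 fold change of the members was −0.30, against −0.03 over all genes. Without NP mouse 1 the count was 5, with Slc7a7 higher and Slc38a4 and Slc43a2 lower as the added members, and without 16 dpc AAV8-null mouse 2 it was 4, in fits that called 5.91% and 3.58% of all genes. By total counts without TMM 18 members passed, 1 higher and 17 lower, as did 50.5% of all genes, when the median of all genes was itself shifted by −0.70, and Slc6a9 remained the one higher.

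From 8 dpc to 16 dpc with AAV8-null, 3 of 30 members passed, all higher, beside 6.87% of all genes, 3.16% higher and 3.71% lower. At an unadjusted p under 0.05 there were 10 members against 22.7% of all genes, and the groups did not overlap for 11 members against 25.4%. The same step with AAV8-p21 was measured in mice that share no library with the AAV8-null step, and again 3 of 30 passed, all higher, beside 3.32% of all genes, 2.09% higher and 1.23% lower. There were 9 members at an unadjusted p under 0.05 against 16.4% of all genes, and 12 whose groups did not overlap against 22.9%. The 3 genes called were the same with both vectors. Over all genes tested, 290 were called in both steps in the same direction, which is 34.7% of the 836 called with AAV8-null and 71.8% of the 404 called with AAV8-p21. The sign of the fold change was the same in both steps for 24 of 30 members, 11 higher and 13 lower, beside 75.6% of all genes. By total counts the AAV8-null step had 1 member higher and 13 lower (53.5% of all genes called), and the AAV8-p21 step 3 higher and 9 lower (35.5% of all genes called), with the median of all genes at −0.70 and −0.59. The AAV8-null count fell to 1, Slc6a9, without 16 dpc AAV8-null mouse 3, in a fit that called 3.64% of all genes, and was 5 without 8 dpc AAV8-null mouse 3, where 10.3% of all genes were called.

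**Figure D3:**
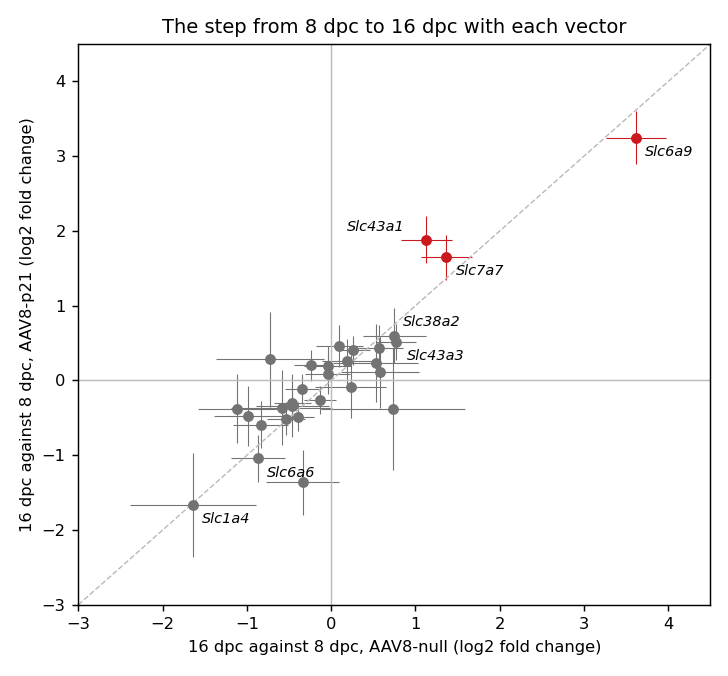
log2 fold change from 8 dpc to 16 dpc of the 30 tested members, with AAV8-null on the horizontal and AAV8-p21 on the vertical axis. Each point is a gene, bars are standard errors, the dashed line marks equal change, and red marks members with adjusted p under 0.05 with both vectors: Slc6a9 at 3.62 and 3.24, Slc43a1 at 1.13 and 1.88, and Slc7a7 at 1.37 and 1.65.

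By family, the remaining members showed no call in edgeR on the 15 libraries, and the following values describe them. DESeq2, fitted either to the 15 libraries or to each compared pair of groups, called Slc1a4, Slc6a6, Slc38a2, Slc38a4 and Slc43a3 in at least 1 comparison, and limma with voom and the total-count scaling called more. Slc38a4, Slc6a6, Slc36a4 and Slc38a2 were singled out after their values were seen. Both SLC1 genes had negative log2 fold changes at 16 dpc in both steps. Slc1a4, the neutral amino acid exchanger ASCT1, was 5.35, 10.8 and 4.73 CPM at 8 dpc and 4.28, 1.08 and 1.33 CPM at 16 dpc with AAV8-null, and 13.3, 19.1 and 10.3 CPM at 8 dpc and 5.79, 4.87 and 2.84 CPM at 16 dpc with AAV8-p21. Every 16 dpc mouse was below every 8 dpc mouse of its vector, with log2 differences of −1.64 (SE 0.74, adjusted p = 0.205, edgeR) and −1.67 (SE 0.70, adjusted p = 0.243, edgeR). The NP mice did not form a group for this gene, with 17.0 CPM in mouse 1 and 2.38 and 1.96 CPM in mice 2 and 3. Slc1a5, the glutamine exchanger ASCT2, stayed between 0.681 and 3.22 CPM.

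The heavy subunits of SLC3 did not follow the rise of the light chain Slc7a7. Slc3a2, its partner, was 60.3, 38.3 and 36.7 CPM in NP mice and 42.4, 47.3 and 44.6 CPM at 8 dpc and 34.4, 38.4 and 29.3 CPM at 16 dpc with AAV8-null. With AAV8-p21 it was 41.1, 46.1 and 44.0 CPM at 8 dpc and 35.3, 29.4 and 29.0 CPM at 16 dpc. In both steps the 16 dpc mice lay below the 8 dpc mice, by −0.40 (SE 0.19, adjusted p = 0.243, edgeR) and −0.49 (SE 0.19, adjusted p = 0.213, edgeR) on the log2 scale. Slc3a1 was 36.2, 29.2 and 19.0 CPM at 16 dpc with AAV8-null, below all 8 dpc AAV8-null mice (log2 difference −1.11, SE 0.47, adjusted p = 0.170, edgeR). With AAV8-p21 its values overlapped, at 68.4, 59.4 and 54.4 CPM at 8 dpc and 37.1, 82.7 and 20.2 CPM at 16 dpc.

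In SLC6, Slc6a13, the GABA and taurine carrier GAT2, had the highest mean level over the groups. It was 182, 131 and 127 CPM in NP mice, 160, 167 and 172 CPM at 8 dpc and 145, 105 and 94.2 CPM at 16 dpc with AAV8-null, and 199, 168 and 198 CPM at 8 dpc and 141, 160 and 95.5 CPM at 16 dpc with AAV8-p21. Per kb, Slc6a9 exceeded it in the 16 dpc AAV8-null mean (58.5 against 39.5 CPM per kb), while in NP livers Slc6a9 was at 3.85 against 50.6 CPM per kb. The 16 dpc mice of Slc6a13 were below the 8 dpc mice with both vectors (log2 differences −0.53 and −0.51, SE 0.22 for each, adjusted p = 0.171 and 0.267, edgeR). Slc6a6, the taurine carrier, had log2 differences of −0.87 (SE 0.32, adjusted p = 0.114, edgeR) and −1.04 (SE 0.32, adjusted p = 0.0931, edgeR) in these steps, and its groups did not overlap in either. Slc6a12, the betaine carrier, lay between 42.1 and 115 CPM, the creatine carrier Slc6a8 between 1.67 and 6.29 CPM, Slc6a16 between 0.296 and 2.31 CPM and Slc6a21 between 0 and 0.801 CPM.

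In SLC7, the cationic amino acid carrier Slc7a2 was the most abundant and had the widest range in CPM. It was 167, 1034 and 1191 CPM in NP mice, 407, 259 and 740 CPM at 8 dpc and 105, 490 and 257 CPM at 16 dpc with AAV8-null. The AAV8-p21 mice had 349, 219 and 238 CPM at 8 dpc and 225, 235 and 521 CPM at 16 dpc. NP mouse 1 was about as low as the pregnant mice, and the groups overlapped in each comparison made. Slc7a6os stayed between 9.07 and 14.8 CPM, Slc7a8 and Slc7a5, light chains of large neutral amino acid exchangers, between 2.08 and 6.45 CPM and between 0.446 and 3.48 CPM, the cationic carrier Slc7a1 between 0.0700 and 1.58 CPM and Slc7a4 between 0.0891 and 1.04 CPM.

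Both SLC36 members were at modest levels. Slc36a1, a lysosomal carrier of small neutral amino acids, was 16.8, 21.1 and 16.6 CPM in NP mice, 22.5, 28.8 and 19.5 CPM at 8 dpc and 25.0, 15.9 and 27.7 CPM at 16 dpc with AAV8-null, and 31.3, 32.8 and 18.4 CPM at 8 dpc and 41.7, 28.1 and 24.5 CPM at 16 dpc with AAV8-p21. The groups overlapped in each comparison made. Slc36a4 lay between 5.96 and 17.8 CPM, and its 16 dpc AAV8-null mice were above its NP mice (log2 difference 0.77, SE 0.30, adjusted p = 0.152, edgeR).

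SLC38 held the most abundant carriers. Slc38a3, the glutamine carrier SNAT3, was 704, 1168 and 1265 CPM in NP mice, 1072, 1018 and 717 CPM at 8 dpc and 944, 1242 and 813 CPM at 16 dpc with AAV8-null. With AAV8-p21 it was 1215, 1124 and 1425 CPM at 8 dpc and 2230, 1700 and 1244 CPM at 16 dpc. The AAV8-p21 mice were above the AAV8-null mice of the same stage at both 8 dpc and 16 dpc, at 16 dpc by the small margin of 1244 to 1242 CPM. Slc38a4, a system A carrier, was 611, 1228 and 1368 CPM in NP mice, 830, 732 and 1016 CPM at 8 dpc and 206, 792 and 302 CPM at 16 dpc with AAV8-null. It was 673, 537 and 622 CPM at 8 dpc and 375, 407 and 535 CPM at 16 dpc with AAV8-p21. NP mouse 1 and 16 dpc AAV8-null mouse 2 bridged its NP and 16 dpc AAV8-null groups, whose log2 difference was −1.30 (SE 0.41, adjusted p = 0.0784, edgeR). It was called lower without NP mouse 1 (adjusted p = 0.0381, edgeR) and without 16 dpc AAV8-null mouse 2 (adjusted p = 0.00443, edgeR).

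The other SLC38 members were given by their range. The system A carrier Slc38a2 lay between 96.3 and 331 CPM, and its 16 dpc AAV8-null mice were above its NP mice (log2 difference 0.87, SE 0.37, adjusted p = 0.194, edgeR). Slc38a10 lay between 71.1 and 130 CPM, the lysosomal carrier Slc38a7 between 10.7 and 20.9 CPM, the lysosomal arginine sensor Slc38a9 between 5.42 and 10.6 CPM, Slc38a6 between 2.91 and 5.24 CPM and the system A carrier Slc38a1 between 0.774 and 2.58 CPM. Slc43a2, the facilitator LAT4 in SLC43, lay between 4.70 and 14.2 CPM.

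**Figure D4:**
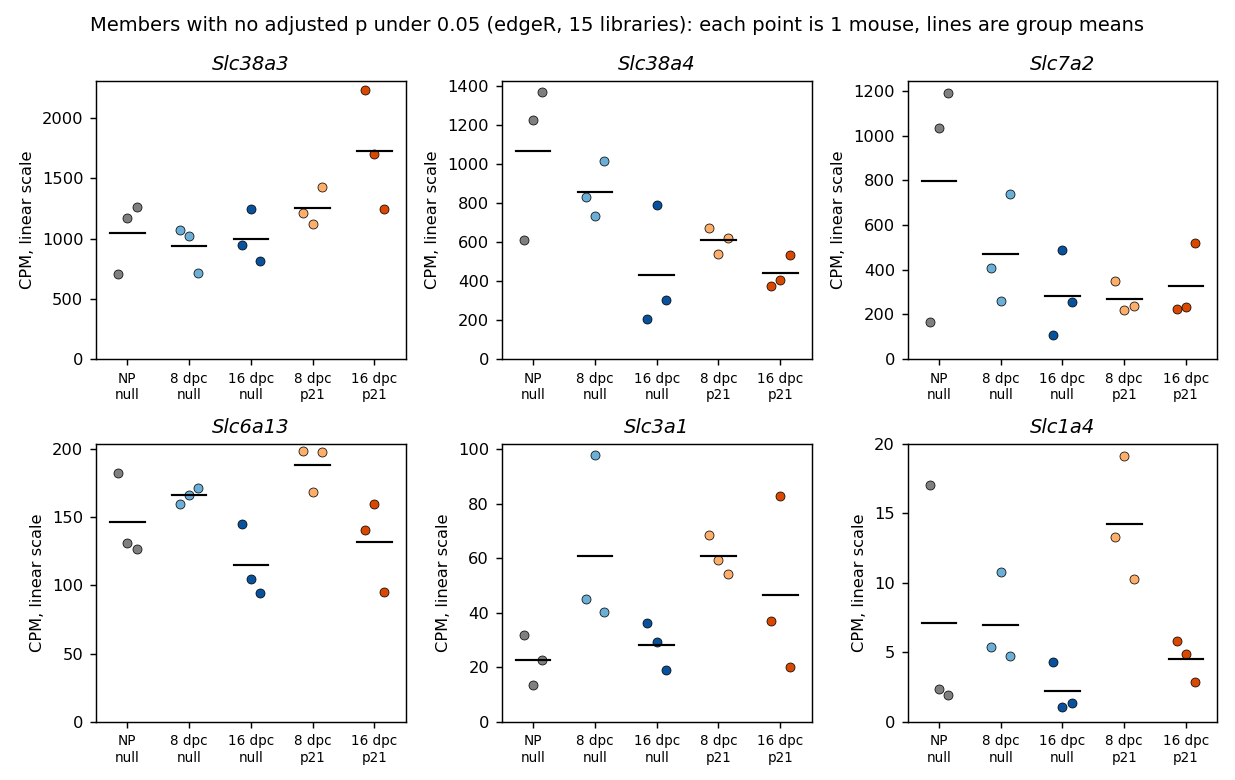
CPM (linear axes from 0) of 6 members without a call in edgeR on the 15 libraries, with 1 point per mouse and a line at each group mean (n = 3 mice). NP mouse 1 is the low NP point of Slc38a3, Slc38a4 and Slc7a2 and the high NP point of Slc6a13, Slc3a1 and Slc1a4.

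AAV8-p21 was compared with AAV8-null at each stage. At 16 dpc the index of clock genes, defined under Other observations, did not overlap between the vectors. It was −1.24 to 1.82 with AAV8-null and −4.45 to −2.58 with AAV8-p21. A difference by vector at 16 dpc therefore cannot be told apart from one by clock phase. At 8 dpc 0 of 30 members passed between AAV8-p21 and AAV8-null, beside 0.0246% of all genes (3 of 12172), and at 16 dpc 0 of 30 passed, beside 0.0739% (9 of 12172), in edgeR. On the 15 libraries DESeq2 also called 0 members at both stages, beside 0.255% and 1.17% of all genes, and limma with voom 0, beside 0.863% and 0.961%. At an unadjusted p under 0.05 there was 1 member at 8 dpc (Slc43a1, lower) against 5.18% of all genes, and 1 at 16 dpc (Slc38a3, higher) against 9.77%. Groups did not overlap for 2 members at 8 dpc (Slc38a3 above, Slc38a4 below), against 10% of all genes, and for 3 at 16 dpc (Slc38a3 and Slc7a7 above, Slc6a16 below), against 13.7%.

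The intervals show which differences 3 mice per group leave possible. For Slc38a3 the log2 difference of AAV8-p21 from AAV8-null was 0.42 at 8 dpc (95% interval −0.17 to 1.02) and 0.79 at 16 dpc (95% interval 0.19 to 1.38, adjusted p = 0.358, edgeR). For the members that rose, the difference at 16 dpc was −0.36 for Slc6a9 (95% interval −1.06 to 0.33), 0.09 for Slc43a1 (95% interval −0.55 to 0.72) and 0.32 for Slc7a7 (95% interval −0.29 to 0.94). For Slc43a1 at 8 dpc it was −0.67 (95% interval −1.32 to −0.02, adjusted p = 0.949, edgeR). The interaction of vector and stage, which asks whether the step from 8 dpc to 16 dpc differed between the vectors, had 0 members called and 0% of all genes, and 0 members at an unadjusted p under 0.05 (3.09% of all genes), in edgeR, and 0 members in DESeq2 and limma with voom. It was −0.37 for Slc6a9 (95% interval −1.36 to 0.62), 0.76 for Slc43a1 (−0.15 to 1.67) and 0.28 for Slc7a7 (−0.62 to 1.17) on the log2 scale.

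**Figure D5:**
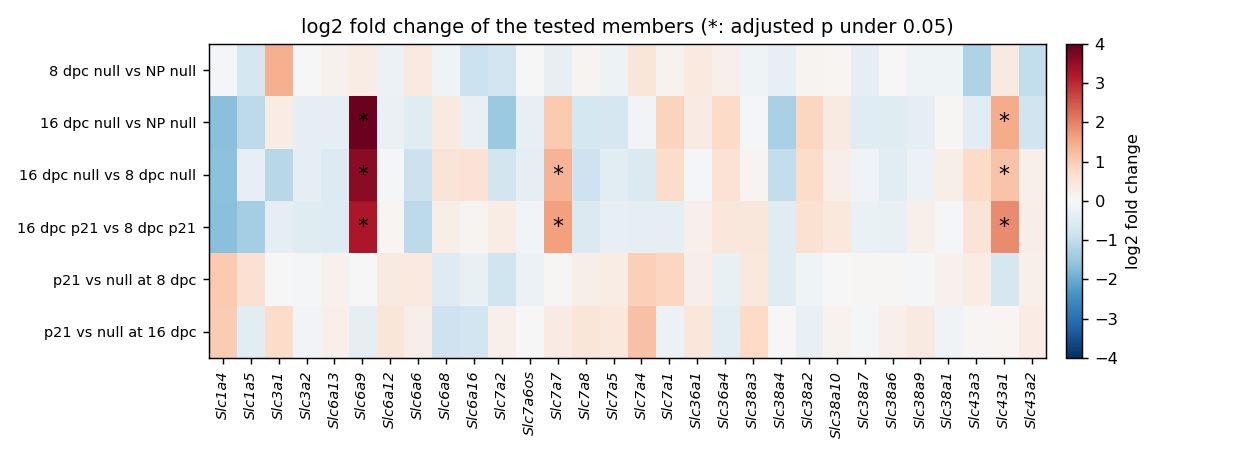
log2 fold change (colour) of the 30 tested members, ordered by family, in 6 comparisons, with a star where the adjusted p was under 0.05. Stars appear for Slc6a9 and Slc43a1 in the comparison of 16 dpc with NP and for Slc6a9, Slc43a1 and Slc7a7 in the comparisons of 16 dpc with 8 dpc, and none appear in the comparisons of 8 dpc with NP or of AAV8-p21 with AAV8-null.

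Genes around these carriers were read from 3 lists. In the list of targets and regulators of ATF4, the transcription factor of the amino acid response, 5 of 27 genes tested passed between 16 dpc and NP AAV8-null livers, 2 higher and 3 lower, beside 6.52% of all genes (3.71% higher and 2.82% lower). DESeq2 on the same 15 libraries called 6, beside 9.95% of all genes, and limma with voom 11, beside 13.2%. The list's median log2 fold change was 0.41 in edgeR, against −0.03 over all genes. Atf4 itself, named after its values were seen, was 91.8, 57.3 and 54.6 CPM in NP mice and 111, 117 and 106 CPM at 16 dpc (log2 fold change 0.72, SE 0.20, adjusted p = 0.0495, edgeR), while Mthfd2, a mitochondrial folate enzyme, rose by 2.36 on the log2 scale from under 1 CPM (adjusted p = 0.000525, edgeR). Pck2, the mitochondrial enzyme that makes phosphoenolpyruvate, fell by 1.11 on the log2 scale (adjusted p = 0.0215, edgeR). Vldlr, a lipoprotein receptor, fell by 2.87 (adjusted p = 6.68e-05, edgeR) and Cth, the enzyme that makes cysteine from cystathionine, fell by 1.54 (adjusted p = 0.00269, edgeR) on the log2 scale, and both also fell from 8 dpc to 16 dpc with either vector. The step with AAV8-null had 1 gene of this list higher and 3 lower, beside 6.87% of all genes, and the step with AAV8-p21 had 0 higher and 2 lower, beside 3.32% of all genes (edgeR). The list's summed level overlapped between these groups, at 1614 to 1863 CPM in NP mice and 1387 to 1741 CPM at 16 dpc with AAV8-null.

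Amino acid sensing by mTORC1, the lysosomal kinase complex that reads amino acid supply, was read in 27 tested genes. In edgeR 0 of 27 were called in any of the 7 comparisons, beside 0% to 6.87% of all genes. At an unadjusted p under 0.05 there were 1 to 4 genes, against 3.09% to 22.7% of all genes. DESeq2 on the same 15 libraries called 0 in each, beside 0% to 11.3% of all genes. For limma with voom the count was 0 to 3, beside 0% to 15.2% of all genes. Of 15 tested genes for other amino acid carriers and their partners, 2 passed between 16 dpc and NP, both lower, beside 6.52% of all genes (2.82% lower). Slc16a10, a facilitator of aromatic amino acids, was 129, 178 and 193 CPM in NP mice and 50.5, 73.5 and 50.3 CPM at 16 dpc with AAV8-null (log2 fold change −1.52, SE 0.23, adjusted p = 0.00136, edgeR). It was also lower at 16 dpc than at 8 dpc with AAV8-null (−0.92, adjusted p = 0.0281, edgeR). In the same step with AAV8-p21, 0 of the 15 genes of this list passed, beside 3.32% of all genes (edgeR). Slc25a38, the mitochondrial glycine importer that serves heme synthesis, was 24.0, 18.1 and 18.5 CPM in NP mice and 12.1, 7.998 and 12.3 CPM at 16 dpc (log2 fold change −0.90, SE 0.22, adjusted p = 0.0223, edgeR). The plasma membrane glycine carrier Slc6a9 and the mitochondrial carrier Slc25a38 differed from NP in opposite directions at 16 dpc with AAV8-null.

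Markers of the liver zones were read in the same way. Of 8 periportal hepatocyte genes, 7 had negative log2 fold changes at 16 dpc against NP livers with AAV8-null (median −0.85), and 1 was called higher and 3 lower in edgeR, beside 6.52% of all genes. Of 8 pericentral hepatocyte genes, 7 had negative log2 fold changes (median −0.58), and 1 was called lower. Their part in the results on the carriers was not tested.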

How the data were processed

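Whole-liver RNA was made into TruSeq Stranded mRNA libraries. Per the methods and the submitters' processing notes, the authors used cutadapt 1.14 for trimming, HISAT2 2.1.0 for alignment (build mm10) and HTSeq 0.12.4 to count reads mapped to a single place in protein-coding genes, and the deposited table holds these raw counts. The strand setting is not stated. Libraries were matched to groups through the labels. The AAV8-p21 16 dpc columns carry numbers that differ from the labels and were used as mice without a number. Mice are taken as independent. In edgeR a p-value weighs a difference between groups against the spread between mice within groups.

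The test was edgeR 4.0.16 (R 4.3.3) quasi-likelihood with TMM, filterByExpr (minimum count 10, 12172 genes, 30 of 31 members), 1 model of 15 libraries (10 residual degrees of freedom) and Benjamini-Hochberg adjustment over all genes, called at 0.05. It was tested on simulated data. CPM per kb used union exon length (GENCODE M21). Intervals are 95%. Alternatives used DESeq2 1.42.0, limma 3.58.1, other scalings, filters and sample sets.

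Members and lists were chosen with earlier results of these data known. Values of each mouse are given for members called, the most abundant member of each family, Slc3a1, Slc3a2 and, chosen after its values were seen, Slc38a4. A few genes that fit these rules are not reported here. The laser-captured zones were not analysed here.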

Additional observations from a re-analysis of the deposited data

How the results depend on the processing

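The count of members called depended on the method. By total counts without TMM it was 18 (16 dpc against NP), 14 (16 dpc against 8 dpc, AAV8-null) and 12 (16 dpc against 8 dpc, AAV8-p21), mostly lower, beside 50.5%, 53.5% and 35.5% of all genes, and this scaling shifted the median of all genes by −0.70, −0.70 and −0.59. DESeq2 on 15 libraries called 1 (8 dpc against NP) and 4 (16 dpc against NP), beside 0.575% and 9.95% of all genes. DESeq2 on the compared groups called 1, 4, 5 and 5 in the comparisons 8 dpc against NP, 16 dpc against NP, and 16 dpc against 8 dpc with AAV8-null and with AAV8-p21, and limma with voom called 7, 9, 8 and 9. Of all genes these called 0.546%, 8.44%, 9.34% and 7.45% (DESeq2 on the compared groups) and 15.2%, 13.2%, 14% and 14.9% (voom). The cause was not tested. Leaving out 1 mouse gave 0 to 1 (1, Slc43a3, without 8 dpc AAV8-null mouse 3), 2 to 5, 1 to 5 and 3 to 4 in these comparisons, beside 0% to 0.744%, 3.01% to 5.91%, 2.08% to 10.3% and 1.29% to 3.74% of all genes, and 0 for both p21 comparisons and the interaction. Slc6a9 was called at 16 dpc against NP and against 8 dpc, with either vector, under each alternative run for it. Small p21 effects changed sign: for Slc43a1 at 16 dpc −0.24 with voom and −0.13 to 0.33 with 1 mouse left out, for Slc6a9 at 16 dpc −0.64 to 0.047 with 1 mouse left out, and for the Slc6a9 interaction 0.026 with voom and −0.65 to 0.037 with 1 mouse left out.

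Deviations of same-numbered mice correlated above 0.1 in 7 of 18 pairs, and those of differently numbered mice in 14 of 36. The correlations ran from −0.576 to 0.472 and from −0.551 to 0.614, in that order. With so few mice per group, these correlations cannot decide whether the numbers pair the samples. With the replicate number as a block on the 12 numbered libraries, 0, 2 and 2 members were called for 8 dpc against NP, 16 dpc against NP and 16 dpc against 8 dpc with AAV8-null, and 0 for AAV8-p21 at 8 dpc, beside 0%, 5.44%, 5.43% and 0.0166% of all genes. Slc43a1 missed the threshold in the AAV8-null step (adjusted p = 0.0596, edgeR). The common biological coefficient of variation between mice of a group was 0.277, and low members such as Slc6a21 gave too few counts to test.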

Other observations

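The clock genes were read beside the members that varied within groups. The clock index, taken on log2(CPM + 0.5) as the average of Clock, Npas2 and Arntl less the average of Ciart, Per3, Nr1d2, Nr1d1, Tef and Dbp, was 0.391, −3.97 and −4.05 in NP mice 1, 2 and 3, where Slc7a2 was 167, 1034 and 1191 CPM. In the 8 dpc AAV8-null mice the index was 1.16, 1.28 and −1.04 and Slc7a2 was 407, 259 and 740 CPM. In the 16 dpc AAV8-null mice the index was 1.82, −1.24 and 1.504 and Slc7a2 was 105, 490 and 257 CPM. Within each of these 3 groups the mouse or mice with the lower index had the higher Slc7a2, and the same order held for Slc38a4.

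The AAV8-p21 groups did not share this order for Slc7a2 or Slc38a4. At 8 dpc the index was 2.66, 2.27 and −2.88 with Slc7a2 at 349, 219 and 238 CPM and Slc38a4 at 673, 537 and 622 CPM, and at 16 dpc it was −4.45, −4.33 and −2.58 with Slc7a2 at 225, 235 and 521 CPM and Slc38a4 at 375, 407 and 535 CPM. The time of day at collection is not given in the sources used here, and the part of clock phase in these levels was not tested. The 16 dpc mice carried an index of −1.24 to 1.82 with AAV8-null and of −4.45 to −2.58 with AAV8-p21, and in both groups every mouse lay above all NP and 8 dpc mice for Slc6a9, Slc43a1 and Slc7a7.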
